A study of Mus musculus with 2 samples.

Results

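The cells described here are those of the Cnot8 knockout (KO) line in a mixed-cell experiment, followed from mouse embryonic stem cells (ESCs) to epiblast-like cells at 48 h (48h-EpiLCs). Droplet-based single-cell RNA sequencing, which counts the 3′ ends of transcripts as unique molecular identifiers (UMIs), was performed on 2 libraries, 1 for each stage. Each library was a mixture, in equal cell numbers, of a wild-type (WT) line from the ROSA mT/mG background, which carries the red fluorescent protein tdTomato, and the Cnot8 KO line, both of the ICR strain. No label assigns a cell to a line, and the genotype label of both samples reads wild type although their titles name WT and KO cells. Zygotes were edited by CRISPR with a guide RNA against exon 2 of Cnot8, and the mutation was passed through the germline. The KO line was then derived from blastocysts of matings between heterozygotes. It was grown from a single colony, so it stands for 1 clone. ESCs were kept in serum and LIF on feeder cells, and EpiLCs on Matrigel in N2B27 with activin A, bFGF and KSR. The study's general EpiLC protocol starts from ESCs kept in 2i/LIF, whereas the labels of this experiment name serum/LIF ESCs alone, and from which of them these EpiLCs were made is not given in the sources used here.

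KO-line cells were chosen by their own transcripts: at least 1000 detected genes, at most 10% mitochondrial UMIs, no tdTomato UMI, and at least 2 UMIs summed over the Y-linked genes Ddx3y, Eif2s3y, Kdm5d and Uty. These values chose the cells and are given only as a description. By this rule, 2978 of 11054 ESCs that passed the quality filters (26.9%) and 2977 of 9400 48h-EpiLCs (31.7%) were taken as KO-line cells, 5955 of 20454 in all. The summed UMIs were 44110356 in ESCs and 59291903 in 48h-EpiLCs, and the median cell held 13368 and 17628 UMIs, respectively. The median number of detected genes was 3878.5 in ESCs and 4467 in 48h-EpiLCs, and 2168 and 2145 after every cell was thinned to 5000 UMIs. Cells just inside the rule, with exactly 2 Y-linked UMIs, made up 49.7% of the KO-line ESCs and 41.6% of the KO-line 48h-EpiLCs. Just outside it were 2238 ESCs and 1724 48h-EpiLCs with 1 Y-linked UMI and no tdTomato, whose median depths of 11537.5 and 14852 UMIs were lower than those of the chosen cells.

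The cells that could be assigned to the WT line were those with at least 1 tdTomato UMI and no Y-linked UMI, 435 in the ESC library and 368 in the 48h-EpiLC library, and they are called tdTomato-positive cells here. They were chosen by the absence of Y-linked UMIs and the KO-line cells by their presence. Cnot8 genotype, sex chromosomes and line of origin thus cannot be told apart between the lines. Of all cells with a tdTomato UMI, 35 of 517 ESCs (6.77%, exact 95% interval 4.76 to 9.29) and 35 of 452 48h-EpiLCs (7.74%, 5.45 to 10.6) also held 2 or more Y-linked UMIs. A further 5321 ESCs (48.1%) and 4247 48h-EpiLCs (45.2%) had neither tdTomato nor Y-linked UMIs and were left unassigned. The mixture was equal, so many WT cells probably lacked a tdTomato UMI. Some with Y-linked UMIs may be among the KO-line cells, and their number is not known. The 2 libraries had 41 cell barcodes in common, 2 of them among the KO-line cells. Fibroblast feeder markers (at least 4 UMIs over Col1a1, Col1a2, Col3a1, Dcn, Lum and Postn) were found in 66 KO-line ESCs (2.22%) and 5 KO-line 48h-EpiLCs. Primitive endoderm markers (at least 4 UMIs over Gata6, Gata4, Sox17, Sox7, Dab2, Foxq1 and Cubn) were found in 99 (3.32%) and 6. Longer marker lists of 12 genes each were also summed. The feeder list went from 64.9 to 20.6 CPM (a gene's UMIs scaled to the summed UMIs of the stage). The primitive endoderm list went from 46.5 to 11.5 CPM. Prrx1 and Ttr were at 0 in 48h-EpiLCs. Because these cells were more frequent in the ESC library, the values were also computed without cells carrying feeder, primitive endoderm or 2-cell-like markers (173 ESCs and 23 48h-EpiLCs, removed together) and are given where a 2-fold call among the described list members changed.

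Mouse ESCs hold a naïve pluripotent state that depends on a network of transcription factors such as Klf2, Klf4, Esrrb, Tfcp2l1 and Nanog, and on LIF, which acts through the kinase JAK and the factor STAT3. On withdrawal of LIF and exposure to activin A and FGF, the cells leave this state and enter formative pluripotency, in which Otx2 and Pou3f1 are active and the genes for de novo DNA methyltransferases are raised, before any germ layer is formed. Cnot8 belongs to the Ccr4-Not complex, where it acts as a deadenylase: it trims the poly(A) tail of an mRNA, the step with which decay usually begins. The question asked here was how much of the naïve-to-formative change in RNA levels took place within the cells of the KO line. With 1 library per stage, no test was possible and no p-value is given. Values are the summed UMIs of a stage in CPM, ratios are 48h-EpiLCs over ESCs on the log2 scale, and the intervals in parentheses are exact 95% intervals that cover counting error only. Stage, culture medium and library cannot be told apart. Where a level differed between the stages, fewer cells with the transcript and fewer transcripts per cell cannot be told apart from the sums alone.

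The KO-line cells moved far from their ESC profile along the naïve-to-formative axis, whereas most of the transcriptome stayed close to it. Fgf5 (chr5:98254184-98277030, GRCm38), a growth factor gene that marks the formative state, went from 1.29 CPM (0.979 to 1.67) in ESCs to 35.9 CPM (34.4 to 37.5) in 48h-EpiLCs, a 27.8-fold rise. Klf2 (chr8:72319033-72321656), a naïve transcription factor gene, fell from 462 CPM to 93.1 CPM, a log2 ratio of -2.31 (-2.35 to -2.27). Esrrb (chr12:86361117-86521628), which encodes an orphan nuclear receptor of the naïve network, fell from 56.6 to 11.3 CPM, a log2 ratio of -2.32 (-2.44 to -2.20). These 3 markers bear out the stage labels within the KO line. Dnmt3a (chr12:3806007-3914443), a de novo DNA methyltransferase gene, went from 167 to 287 CPM, a log2 ratio of 0.79 (0.75 to 0.83) that stayed under 2-fold. The pluripotency gene Pou5f1 was near its ESC level, with 75.5 CPM in ESCs and 82.4 CPM in 48h-EpiLCs, and Sox2, its partner factor, was at 237 and 129 CPM.

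Among 9462 genes with a mean of at least 5 CPM, 239 rose (2.53%) and 382 fell (4.04%) by at least 2-fold on the log2(CPM + 1) scale. These shares are the background for every list count below. The minimum applied to the mean of the stages, so a gene could pass it through its level in 1 stage alone. A change of at least 4-fold was seen for 24 genes upward and 93 downward. By contrast, 7151 genes (75.6%) lay within 0.5 log2 units of their ESC level, and the median over all 9462 was -0.02. When cells with markers of other cell types were left out, 261 genes rose and 349 fell, and 36 of the 382 falls were no longer counted. In the tdTomato-positive cells, whose sums were 6154790 UMIs in ESCs and 6219834 in 48h-EpiLCs, 440 of 9228 genes rose (4.77%) and 430 fell (4.66%). Thinning the KO-line sums to the same depth gave 293 rises (3.08%) and 403 falls (4.24%).

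**Figure D1:**
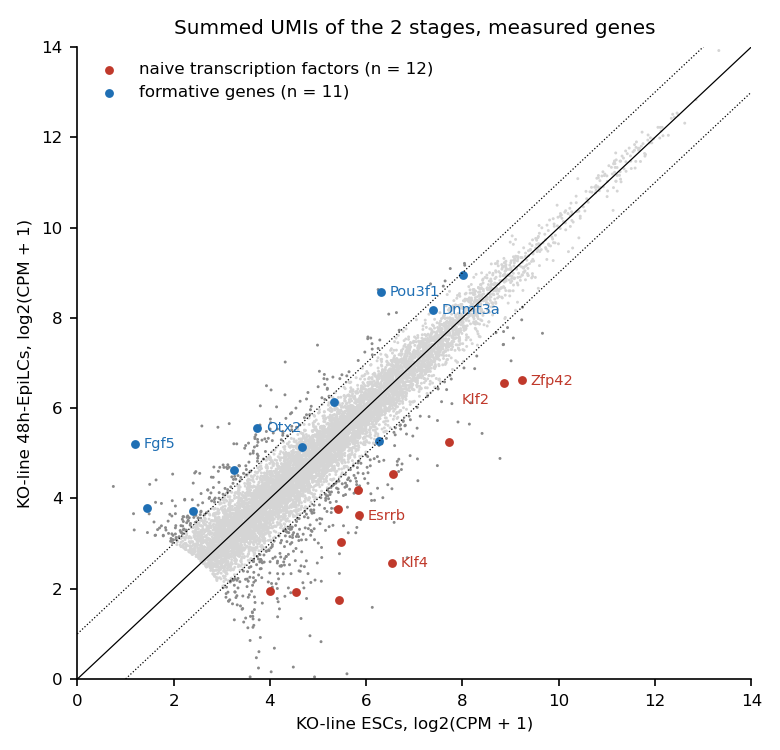
Summed levels in KO-line 48h-EpiLCs (vertical axis) against KO-line ESCs (horizontal axis), both as log2(CPM + 1), for the 9462 measured genes. The solid line marks equal levels and the dotted lines mark 2-fold differences; all 12 measured naïve transcription factor genes (red) lie under the lower line, while 6 of the 11 formative genes (blue) lie above the upper one.

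The naïve transcription factors fell together. Of 13 such genes listed, 12 passed the minimum level and all 12 fell by at least 2-fold, against 4.04% of all genes, with a median of -2.37 on the log2(CPM + 1) scale. Summed over the list, their UMIs went from 1739 to 311 CPM. The steepest falls were those of the Krüppel-like factor gene Klf4, from 92.0 to 4.94 CPM, and of the T-box factor gene Tbx3, from 42.0 to 2.34 CPM. Nr5a2, which encodes a nuclear receptor, went from 22.4 to 2.82 CPM, and Tfcp2l1, from 43.5 to 7.24 CPM. Klf4, Tbx3 and Nr5a2 were under 5 CPM at 48 h and reached the minimum mean through their ESC level. The most abundant of them was Zfp42, the gene of the ESC marker Rex1, which fell from 603 to 97.1 CPM and so remained well detected in 48h-EpiLCs. Klf5, another Krüppel-like factor gene, kept 37.2 of 210 CPM. The shallowest falls were those of Gbx2, from 41.5 to 12.5 CPM, and of Nanog, from 56.1 to 17.2 CPM. Prdm14, which encodes a repressor of FGF signalling and DNA methylation, was too low to be counted, at 2.04 CPM in ESCs and 0.388 CPM in 48h-EpiLCs.

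In the tdTomato-positive cells of the same libraries all 12 fell as well, with a median of -2.95. The levels left at 48 h were higher in the KO-line cells for several of the abundant factors. Klf2 stood at 93.1 CPM in KO-line 48h-EpiLCs and at 37.5 CPM in tdTomato-positive ones, Zfp42 at 97.1 and 37.5 CPM, and Esrrb at 11.3 and 3.54 CPM. Zfp42 was already higher in the KO-line ESCs, at 603 CPM against 304 CPM in tdTomato-positive ESCs, whereas Klf4 was lower, at 92.0 against 155 CPM. Nanog, Klf4 and Gbx2 went the other way. Nanog had 17.2 CPM in KO-line 48h-EpiLCs and 27.5 CPM in tdTomato-positive ones, Klf4 4.94 and 8.52 CPM, and Gbx2 12.5 and 18.01 CPM. The difference between the lines in these changes was not tested, since each stage had 1 library.

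Other genes often used as naïve markers behaved unevenly. Of 16 listed and measured, 6 fell, 1 rose and 9 stayed under 2-fold, with a median of -0.55. Over all genes, 4.04% fell and 2.53% rose. Jam2, a junctional adhesion molecule gene, showed one of the deepest falls of all, from 68.9 to 2.01 CPM, a log2 ratio of -5.10 (-5.38 to -4.84). Spp1, which encodes the secreted protein osteopontin, fell from 282 to 49.1 CPM, and Tdh, the gene of threonine dehydrogenase on which mouse ESCs depend, from 134 to 20.0 CPM. Bcl3, Zfp57 and Fbxo15 were the other members that fell. Dppa3, the gene of the maternal and germline factor Stella, was the exception: it rose from 12.9 to 48.4 CPM, a log2 ratio of 1.91. In the tdTomato-positive cells Dppa3 had 16.2 CPM in ESCs and 21.5 CPM in 48h-EpiLCs. Several abundant members kept most of their level in the KO line. Dppa5a was at 2375 and 1793 CPM, Upp1, the uridine phosphorylase gene, at 494 and 320 CPM, and Tex19.1 at 201 and 180 CPM. In tdTomato-positive cells Upp1 was at 610 and 171 CPM.

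The formative genes moved up, less evenly. Of 11 listed, all measured, 6 rose and none fell, beside 2.53% and 4.04% of all genes. The median was 1.32, beside -0.02 over all genes. Besides Fgf5, the POU-domain factor gene Pou3f1 (also called Oct6) rose from 78.7 to 382 CPM, a log2 ratio of 2.28 (2.23 to 2.33), and Otx2, which encodes a homeodomain factor, from 12.4 to 46.3 CPM. Sall2 rose from 1.72 to 12.8 CPM, Zic2 from 8.55 to 23.6 CPM and Sox3 from 4.26 to 12.1 CPM. The antisense transcript Gm2164 overlaps Pou3f1, and whether the counting used strand is not given in the sources used here. Dnmt3b was at 258 and 490 CPM and Lef1 at 39.1 and 69.1 CPM, which did not reach 2-fold. Etv4, an ETS-factor target of FGF signalling, ran against the list, at 76.2 CPM in ESCs and 37.8 CPM in 48h-EpiLCs, just under 2-fold, and passed 2-fold without cells of other types (-1.01 on the log2(CPM + 1) scale). Of the 6 genes that rose, Fgf5, Sall2 and Sox3 were under 5 CPM in ESCs and reached the minimum mean through their 48 h level. The tdTomato-positive cells had a median of 1.36, with Pou3f1 going from 68.1 to 436 CPM and Fgf5 from 2.76 to 53.4 CPM.

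**Figure D2:**
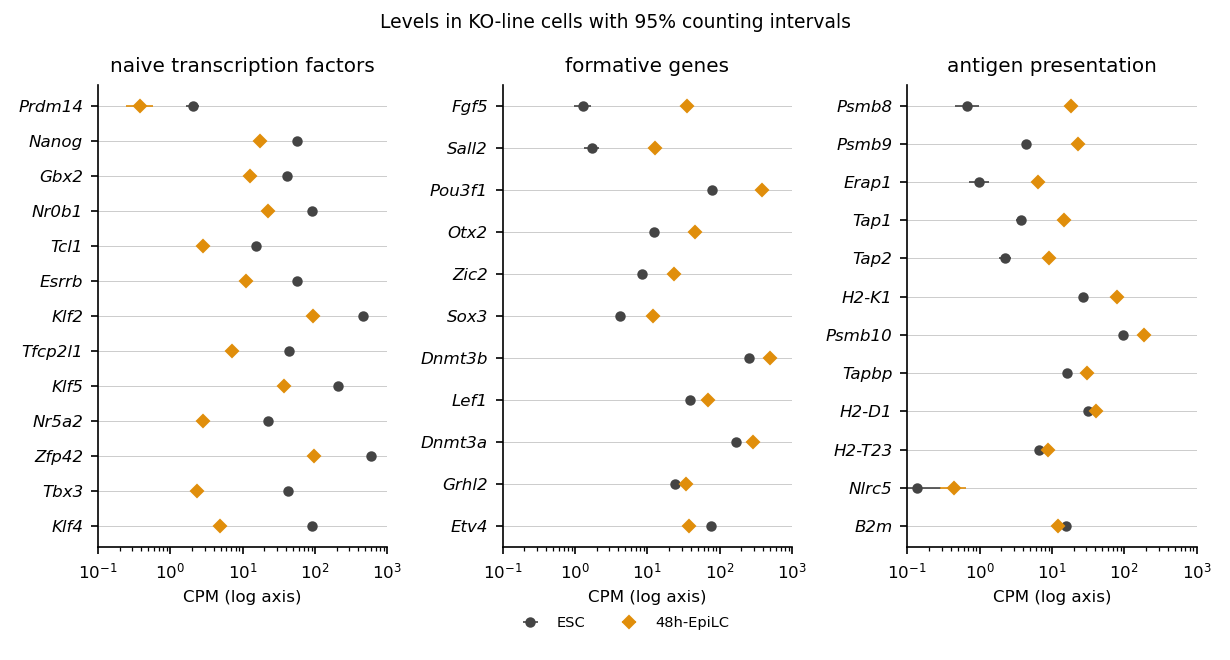
Levels in CPM (log axis) of the naïve transcription factors, the formative genes and the antigen presentation genes in KO-line ESCs (grey circles) and KO-line 48h-EpiLCs (orange diamonds), with exact 95% counting intervals. All 13 naïve factors, Prdm14 included, have the 48h-EpiLC point to the left, while among the formative genes Etv4 and among the antigen presentation genes B2m are the exceptions to a shift to the right.

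Seen cell by cell, the naïve sum was low in most of the KO-line population at 48 h. After thinning each cell to 5000 UMIs, which left 2955 ESCs and 2968 48h-EpiLCs, the median KO-line ESC held 8 UMIs over the naïve transcription factors (quartiles 6 and 11) and the median 48h-EpiLC held 1 (quartiles 0 and 2). The share of cells with no such UMI was 0.711% in ESCs (0.440 to 1.08) and 31.1% in 48h-EpiLCs (29.4 to 32.8). Cells at or above the ESC median made up 59.6% of ESCs and 1.28% of 48h-EpiLCs (0.908 to 1.75), so few KO-line cells kept an ESC-like naïve sum at 48 h. For the formative genes the median went from 3 UMIs (quartiles 2 and 5) to 7 (quartiles 4 and 9), and 91.2% of 48h-EpiLCs were at or above the ESC median, against 59.9% of ESCs. The 2 distributions overlapped more for the formative than for the naïve sum. Both sums weigh the most abundant genes. In ESCs, Klf2 held 462 of the 1739 CPM of the naïve list, and Zfp42 held more. Dnmt3a held 167 of the 672 CPM of the formative list, and Dnmt3b held more. The overlap thus reflects these genes more than the rarer members. In tdTomato-positive cells the naïve median went from 7 to 1 and the share without any naïve UMI from 1.61% to 45.0%, and the formative median went from 3 to 7.

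Single genes were seen in fewer cells. A Klf2 UMI was present in 82.8% of the thinned KO-line ESCs and 31.3% of the 48h-EpiLCs (94.7% and 61.6% before thinning), and an Esrrb UMI in 23.8% and 5.80% (52.9% and 17.97%). For Pou3f1 the shares were 26.8% and 77.1% (49.4% and 94.4%), so this factor was found in most KO-line cells at 48 h. An Fgf5 UMI was found in 0.508% of ESCs and 14.3% of 48h-EpiLCs (1.71% and 38.0%). Free RNA and mixed droplets may add UMIs, so the 186 thinned cells with feeder markers in the ESC library were set beside these shares. They held a Klf2 UMI in 55.9%, an Esrrb UMI in 4.30%, a Pou3f1 UMI in 8.06% and an Fgf5 UMI in 1.08% of cells. Their unthinned median depth was 13826 UMIs, close to the 13368 of the KO-line ESCs. Of the 199 such cells before thinning, 66 were KO-line ESCs themselves. A Klf4 UMI was found in 47.8% of the thinned cells with feeder markers and 32.1% of KO-line ESCs. Their shares are therefore not a clean floor. The Fgf5 share in KO-line ESCs was no higher than theirs, which rested on 2 cells (0.130 to 3.83%). The 48h-EpiLC library held only 8 cells with feeder markers, too few for such a comparison. Dppa3 was detected in 5.31% of thinned ESCs and 18.7% of 48h-EpiLCs (13.7% and 45.4% before thinning), against 1.61% of the cells with feeder markers. The 555 thinned 48h-EpiLCs with a Dppa3 UMI had a mean naïve sum of 1.47 UMIs and the 2413 without one 1.62. Dppa3 UMIs lay in cells with naïve sums like those of the rest. The corresponding means were 1.15 in the 423 48h-EpiLCs with an Fgf5 UMI and 1.67 in the 2545 without, and 1.46 and 2.05 for Pou3f1 (2287 and 681 cells).

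**Figure D3:**
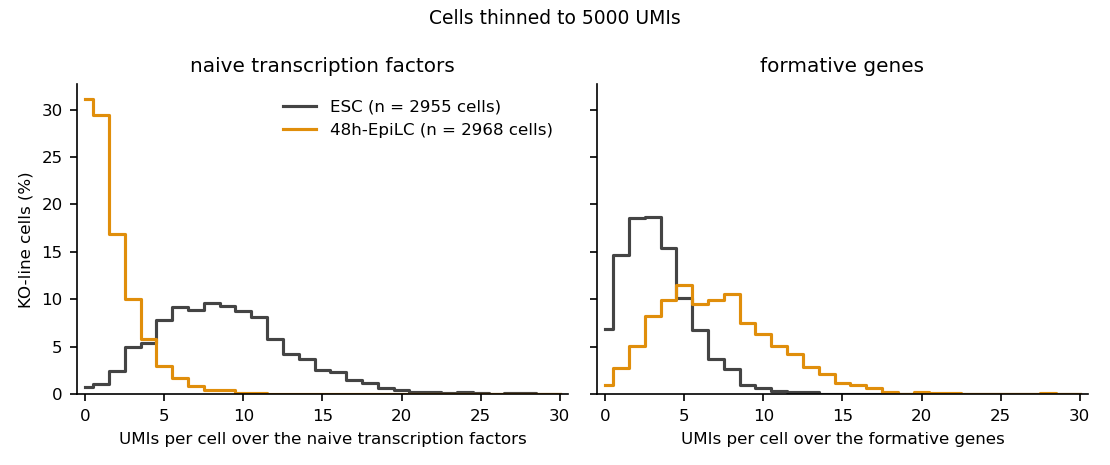
Share of KO-line cells (%) by the number of UMIs over the naïve transcription factors (left) and the formative genes (right), after thinning each cell to 5000 UMIs, for 2955 ESCs (grey) and 2968 48h-EpiLCs (orange). The naïve sums have medians of 8 and 1 UMIs and the formative sums medians of 3 and 7 UMIs, with more overlap for the formative genes.

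The core pluripotency genes moved down, though less than the naïve factors. Of 8 measured, 6 were below their ESC level. Only Sall4, a zinc-finger factor gene, fell by 2-fold, from 179 to 85.0 CPM, beside 4.04% of all genes. The median was -0.52, beside -0.02 over all genes. Utf1 was at 774 and 937 CPM and Tdgf1, the gene of the Nodal co-receptor Cripto, at 702 and 483 CPM. Germ layer genes stayed low, since 1 of 12 listed reached the minimum level (the neural filament gene Nes, at 12.4 and 15.1 CPM). The mesoderm gene T was at 0.431 CPM in ESCs and 0.810 CPM in 48h-EpiLCs, and the primitive streak gene Eomes at 4.08 and 5.80 CPM.

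In the LIF/STAT3 branch, 7 genes fell, the receptor genes Lifr and Il6st among them. Of 13 genes listed, 12 were measured, and none rose, with a median of -1.42 (-0.96 over members with a mean of at least 20 CPM), against falls of 4.04% over all genes. Klf4 and Tfcp2l1, counted here as well, were already described among the naïve factors. Lifr went from 24.2 to 7.47 CPM and Il6st, which encodes the shared chain gp130, from 13.4 to 4.96 CPM. Stat3, the transcription factor gene itself, fell from 55.0 to 9.26 CPM, and its feedback target Socs3, from 24.1 to 4.69 CPM. Klf4, Il6st and Socs3 were under 5 CPM at 48 h and reached the minimum mean through their ESC level. The kinase gene Jak1 was at 33.6 and 24.2 CPM. Of the PIM kinase genes, Pim1 was at 117 and 190 CPM and Pim3 at 153 and 79.2 CPM. Pim2, which was not on the list, rose from 30.8 to 168 CPM. In the tdTomato-positive cells the same list had a median of -1.73, with Stat3 at 43.4 and 6.43 CPM.

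In the BMP pathway the target genes Id1 and Id3 and the ligand gene Bmp4 fell. Of 14 genes listed, 10 were measured, 3 fell and none rose, beside 4.04% and 2.53% of all genes. The median of -0.30 was unstable, at -0.06 with cells thinned to 5000 UMIs and -2.01 with a minimum mean of 20 CPM. Id1, an inhibitor of basic helix-loop-helix factors and a BMP target, fell from 115 to 5.45 CPM, a log2 ratio of -4.40 (-4.56 to -4.23). Bmp4 fell from 42.6 to 5.85 CPM, and Id3, from 74.4 to 17.7 CPM. The receptor gene Bmpr1a was at 23.8 and 32.7 CPM. In tdTomato-positive cells Id1 went from 81.2 to 12.5 CPM and Id3 stood at 34.0 and 33.8 CPM.

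The Nodal/activin pathway showed a rise of its feedback target and little else in common. Of 18 genes, 14 were measured, 2 rose and 3 fell (2 without cells of other types), beside 2.53% and 4.04% of all genes. The median over the same genes went from -0.08 to 0.12 when those cells were left out. Lefty1, a secreted Nodal inhibitor that Nodal signalling itself induces, rose from 75.04 to 395 CPM, a log2 ratio of 2.39 (2.34 to 2.45). Lefty2, its paralogue, was at 55.1 and 61.1 CPM in the KO line and at 21.1 and 65.8 CPM in tdTomato-positive cells. Lefty1 and Lefty2 are close copies of each other, so reads that fit both may have been misassigned or left out. The ligand gene Nodal was at 79.7 and 60.3 CPM. Of the members that fell, the convertase gene Pcsk6 went from 12.2 to 4.79 CPM. The activin subunit gene Inhba differed by -4.22 on the log2(CPM + 1) scale and by -1.79 without cells of other types, and the antagonist gene Fst by -1.10 and 0.50.

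For FGF/ERK signalling, 18 of 21 genes were measured, 3 rose (Fgf5, Fgf15 and the antagonist gene Spry1) and 1 fell (Spry4), with a median of 0.19. The shares over all genes were 2.53% and 4.04%. Fgf5 and Fgf15 were under 5 CPM in ESCs and reached the minimum mean through their 48 h level. Without cells of other types 4 rose and 2 fell, since the phosphatase gene Dusp4 (0.99 on the log2(CPM + 1) scale, 1.13 without those cells) and Etv4 crossed 2-fold. Fgf15 went from 3.11 to 13.3 CPM, and Spry1 from 10.4 to 21.99 CPM, whereas Spry4 went from 37.1 to 16.0 CPM. The ERK targets Dusp6, at 34.1 and 56.0 CPM, and Egr1, at 41.9 and 74.5 CPM, stayed under 2-fold. Fgf4, the ligand gene expressed in naïve cells, was at 65.3 and 54.7 CPM. In the Wnt list, 15 of 24 genes were measured. The receptor gene Fzd2 rose from 5.89 to 21.2 CPM. The receptor gene Fzd5 fell from 20.7 to 4.05 CPM and Notum, which encodes a secreted Wnt inhibitor, from 10.3 to 1.55 CPM. Fzd5 and Notum were under 5 CPM at 48 h and reached the minimum mean through their ESC level.

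Chromatin regulators gave no rise of 2-fold and 4 falls. The 9 DNA methylation enzymes lay between -0.96 and 0.92 on the log2(CPM + 1) scale, so none reached 2-fold, which for a list of this size is near the shares over all genes (2.53% and 4.04%). Dnmt3b and Dnmt3a had the highest ratios of the list and Tet2, a dioxygenase gene that acts in demethylation, the lowest, at 35.6 and 17.8 CPM. Of 23 Polycomb subunits, 21 were measured, 4 fell and none rose, with a median of -0.41 and values up to 0.75. Among those of PRC2, a complex that methylates histone H3, Eed fell from 304 to 116 CPM, Jarid2 from 489 to 220 CPM and Epop from 532 to 187 CPM. Kdm2b, which recruits PRC1 to CpG islands, fell from 118 to 55.7 CPM. The catalytic subunit gene Ezh2 was at 269 and 217 CPM. In tdTomato-positive cells Eed went from 244 to 96.0 CPM and Epop from 283 to 90.5 CPM.

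Genes of the Ccr4-Not complex differed little between the stages, mostly downward. All 12 subunit genes listed were measured, and 10 were below their ESC level, with a median of -0.19 in the KO line and -0.18 in tdTomato-positive cells. Their summed level went from 843 to 725 CPM. None reached 2-fold, a count near the share over all genes. Tnks1bp1 came closest, at 10.97 and 5.03 CPM. Cnot8 RNA was at 72.1 CPM in KO-line ESCs and 62.6 CPM in KO-line 48h-EpiLCs, and at 43.1 and 49.7 CPM in tdTomato-positive cells. Since the edit lies in exon 2 and the reads were counted at the 3′ end, these values do not check the knockout. Its paralogue Cnot7, the other deadenylase that can fill the same place in the complex, was at 44.5 and 42.7 CPM. The scaffold gene Cnot1 was at 136 and 102 CPM. Among 23 partners of the complex and other deadenylases, 2 fell and none rose, beside 4.04% and 2.53% of all genes. Noct, the gene of the deadenylase-like protein nocturnin, fell from 108 to 51.2 CPM. Zfp36l1, which recruits the complex to AU-rich mRNAs, fell from 31.7 to 13.5 CPM. The 31 measured genes of the wider mRNA decay machinery ran from -0.76 to 0.52 with a median of -0.17, and their count of 0 past 2-fold was likewise near the shares over all genes.

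Longer lists, which the study drew from its bulk RNA-seq of separate cultures, were also examined. Over all genes, 4.04% fell and 2.53% rose. Of the naïve network-like genes, 246 of 296 listed were measured, 81 fell and 2 rose. Their median was -0.68 in the KO line and -0.85 in tdTomato-positive cells. Of 1236 genes listed as degraded in a Cnot8-dependent manner, 802 were measured, 198 fell and 4 rose, with medians of -0.48 and -0.46. Without cells of other types the counts were 84 falls and 2 rises for the first list and 191 falls and 6 rises for the second. The study chose these genes by their RNA levels in KO and WT cells during EpiLC formation, so their direction is not independent evidence. Their members that rose in the KO line were Dppa3, Nqo1, a quinone reductase gene that went from 34.1 to 106 CPM, Gpx2, a glutathione peroxidase gene that went from 42.8 to 99.8 CPM, and Alad, a haem synthesis gene that went from 47.4 to 104 CPM.

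Metabolic genes drew apart by pathway. Cholesterol synthesis moved up as a block: all 23 genes listed were measured and 22 were above their ESC level. Only 3 rose by 2-fold, beside 2.53% of all genes. The median was 0.58, beside -0.02 over all genes. Fdps, which encodes farnesyl diphosphate synthase, rose from 193 to 416 CPM, Insig1, a sterol-regulated retention factor gene, from 32.8 to 74.1 CPM, and Dhcr7, the last step of the pathway, from 34.3 to 72.3 CPM. Hmgcs1, a synthase gene of the early pathway, was at 111 and 169 CPM, and the regulator gene Srebf2 at 71.8 and 107 CPM. Ebp, the sterol isomerase gene, was the exception, at 45.5 and 27.7 CPM. Per thinned cell, the cholesterol genes had a median of 6 UMIs in ESCs and 10 in 48h-EpiLCs. In tdTomato-positive cells the list had a median of 0.39, and Ebp was at 70.8 and 35.0 CPM.

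Because the cholesterol genes moved together, the 250 bases before their RefSeq start sites (build GRCm38.p6) were searched on both strands for CCAAT, the site of the factor NF-Y, and for GGGCGG, the core of the GC box. A window was given for 16 of the 23 genes. CCAAT was found in all 16 genes, against 41.4% of 7562 measured genes, and in 16 of their 19 windows, against 36.0% of the windows of measured genes and 33.8% of all 32851 windows. Ebp, which was lower, had it too. GGGCGG was found in 15 of the 16 genes, against 66.9% of measured genes, and in 84.2% of the windows, against 60.2% of the windows of measured genes and 32.7% of all windows. Of the other lists searched, CCAAT was found in 7 of 10 antigen presentation genes, 6 of 11 fatty acid synthesis genes, 3 of 10 naïve factors and 2 of 6 formative genes. A short form of the interferon-response element and TTCNNNGAA, a form of the STAT site, were searched as well. The former was found in 1 cholesterol and 2 antigen presentation genes, against 2.74% of measured genes. TTCNNNGAA was found in 1 gene each of the cholesterol, antigen presentation, naïve and formative lists, against 6.70% of measured genes. The promoters of 3 genes are shown, 5′ to 3′ on the strand of the gene, with matches to either motif or its reverse complement in capitals: Hmgcs1 and Insig1 as members with higher levels and Ebp as the member with a lower level. The stretch of Insig1 is 201 bases long because it stops before the first annotated exon.
Hmgcs1, chr13:119690101-119690350, plus strand: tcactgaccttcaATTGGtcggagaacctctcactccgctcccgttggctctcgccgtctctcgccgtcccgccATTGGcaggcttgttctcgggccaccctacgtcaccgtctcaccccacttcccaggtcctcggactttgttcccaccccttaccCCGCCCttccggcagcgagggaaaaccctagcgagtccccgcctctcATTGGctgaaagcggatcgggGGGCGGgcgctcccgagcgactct
Insig1, chr5:28071162-28071362, plus strand: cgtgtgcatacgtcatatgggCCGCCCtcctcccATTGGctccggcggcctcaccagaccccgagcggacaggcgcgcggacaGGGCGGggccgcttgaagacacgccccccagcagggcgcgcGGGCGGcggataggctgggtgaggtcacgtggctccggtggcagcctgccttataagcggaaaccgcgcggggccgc
Ebp, chrX:8193513-8193762, minus strand: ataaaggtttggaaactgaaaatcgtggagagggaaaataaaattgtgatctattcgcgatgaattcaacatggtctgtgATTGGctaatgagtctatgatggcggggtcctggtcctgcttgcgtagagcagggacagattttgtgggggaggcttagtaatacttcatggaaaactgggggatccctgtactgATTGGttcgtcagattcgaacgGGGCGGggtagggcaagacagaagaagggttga
The stretches hold 3, 1 and 2 CCAAT matches and 2, 3 and 1 GGGCGG matches in the order shown. A match is a string of letters and not a bound site.

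Fatty acid synthesis went the same way. Of 14 genes, 13 were measured, all 13 were above their ESC level, and 3 rose by 2-fold, with a median of 0.59 in the KO line and 0.79 in tdTomato-positive cells. They were desaturase genes: Fads2 from 31.6 to 112 CPM, Scd1 from 44.1 to 106 CPM and Scd2 from 198 to 450 CPM. Fasn, the fatty acid synthase gene, was at 130 and 186 CPM. Glycolysis had no common direction, with 1 rise and 2 falls among 20 genes, beside 2.53% and 4.04% of all genes. The lactate exporter gene Slc16a3 rose from 67.4 to 187 CPM, whereas Hk2, a hexokinase gene, fell from 314 to 142 CPM and Pfkp, a phosphofructokinase gene, from 62.9 to 30.2 CPM. None of 78 measured nuclear genes of oxidative phosphorylation reached 2-fold, beside the same shares over all genes, with a median of 0.17. Of 15 hypoxia genes, Adm rose and Kdm3a and Ndrg1 fell, with Kdm3a, a histone demethylase gene, going from 119.5 to 29.9 CPM.

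Antigen presentation genes rose from low levels. Of 12 listed, 10 were measured, 5 rose and none fell, beside 2.53% and 4.04% of all genes. The median was 1.24 in the KO line and 1.35 in tdTomato-positive cells. Psmb8, Psmb9, Tap1 and Tap2, 4 of the 5 that rose, were under 5 CPM in ESCs and reached the minimum mean through their 48 h level, so the filter itself favoured rises here, and over members with a mean of at least 20 CPM the median was 0.91. The immunoproteasome subunit gene Psmb8 went from 0.680 to 18.2 CPM, the steepest rise of the list, and its neighbour Psmb9 from 4.42 to 22.7 CPM. The peptide transporter genes Tap1 and Tap2 went from 3.70 to 14.8 CPM and from 2.27 to 9.17 CPM. H2-K1, a class I heavy chain gene, rose from 26.7 to 80.4 CPM, and H2-D1, another, was at 31.6 and 41.2 CPM. Class I genes are close copies, so reads that fit several of them may have been misassigned or left out. B2m, the light chain gene, was at 15.6 and 12.2 CPM, and at a difference of 0.38 on the log2(CPM + 1) scale without cells of other types. The interferon-response gene Oasl2 rose from 2.95 to 22.3 CPM. Erap1, a peptide-trimming gene, was below the minimum at 0.998 and 6.41 CPM. Feeder fibroblasts express class I genes, and the ESC library had more of them: an H2-K1 UMI was found in 35.5% of the cells with feeder markers, 12.6% of KO-line ESCs and 31.03% of KO-line 48h-EpiLCs after thinning (63.8%, 28.5% and 68.8% before). Psmb9 and Tap1 start head to head on chromosome 17, 226 bases apart, and their gene bodies overlap in the annotation.

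**Figure D4:**
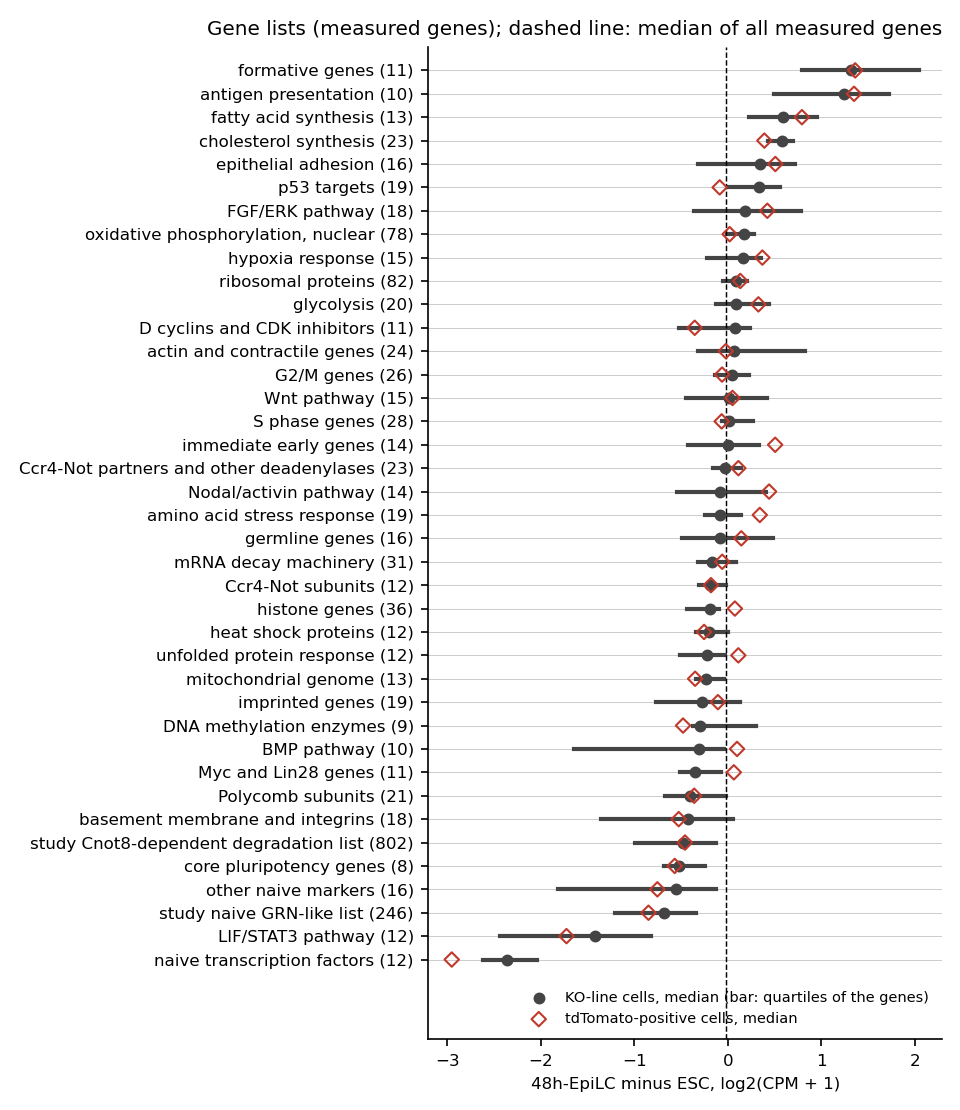
Median difference, 48h-EpiLCs minus ESCs on the log2(CPM + 1) scale, of gene lists with at least 8 measured genes in KO-line cells (grey circles, bars for the quartiles over genes) and in tdTomato-positive cells (red diamonds), with the number of measured genes in parentheses. The dashed line is the median of all measured genes; the KO-line medians drawn run from -2.37 for the naïve transcription factors to 1.32 for the formative genes.

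Adhesion and shape genes changed selectively. Of 20 epithelial adhesion genes, 16 were measured, 3 rose and none fell, beside 2.53% and 4.04% of all genes. The tight junction genes Cldn7 rose from 14.2 to 89.3 CPM and Cldn6 from 15.1 to 45.5 CPM, and the polarity gene Crb3 from 11.6 to 32.2 CPM. E-cadherin, Cdh1, was at 69.6 and 107 CPM, and Epcam at 300.4 and 476 CPM. The keratin gene Krt18 rose from 18.9 to 77.6 CPM. Of 18 basement membrane and integrin genes, 7 fell and none rose, and 3 of them fell without cells of other types. Lama1, a laminin chain gene, went from 12.9 to 0.894 CPM and Nid1, the nidogen gene, from 32.8 to 5.46 CPM, and these held without those cells at -2.43 and -2.22. Col4a1, a type IV collagen gene, differed by -1.62 and by -0.86 without them. Among 24 measured actin and contractile genes, 5 rose and 3 fell (7 and 1 without other cell types). Myl9, a myosin light chain gene, rose from 19.2 to 53.8 CPM, and Vim, the vimentin gene, fell from 288 to 68.5 CPM.

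Cell division genes had medians close to that of all genes, 0.01 for 28 S phase genes and 0.05 for 26 G2/M genes, beside -0.02. Their members ran from -0.80 to 0.65 and from -0.61 to 0.64. None reached 2-fold, which in lists of this size is near the shares over all genes. Of the D cyclin genes, Ccnd3 fell from 219 to 67.6 CPM and Ccnd2 from 29.3 to 9.06 CPM, while Ccnd1 was at 135 and 114 CPM. Of 19 measured p53 targets, 2 rose and 1 fell, beside 2.53% and 4.04% of all genes. Ccng1 rose from 102 to 211 CPM and Pmaip1, the gene of the apoptosis inducer Noxa, from 20.5 to 57.7 CPM. Sesn1 fell from 14.2 to 6.14 CPM. The p53 list had a median of 0.33 in the KO line (0.50 without cells of other types) and -0.09 in tdTomato-positive cells. Ccng1 was at 110 and 149 CPM in the latter, and Mdm2, a p53 target and inhibitor, at 120 and 164 CPM in the KO line and at 114 and 108 CPM in tdTomato-positive cells. Unfolded protein, heat shock and amino acid stress genes (12, 12 and 19 measured) gave no rise and 1 fall, that of the stress factor gene Xbp1, from 66.9 to 25.4 CPM. These counts are near the shares over all genes, 2.53% for rises and 4.04% for falls. Of 19 measured imprinted genes, 3 fell: Peg10 from 108 to 51.9 CPM, H19 from 52.7 to 16.3 CPM and Ascl2 from 13.1 to 4.45 CPM. Peg3 was at 104 and 60.8 CPM in the KO line and at 387 and 143 CPM in tdTomato-positive cells.

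The genes with the largest differences, ranked by the smallest difference with and without cells of other types and top doublet scores, were named next. Upward, Fgf5 came first, followed by Sema6a, a semaphorin gene, which rose from 5.01 to 47.7 CPM. Hes6, which encodes a helix-loop-helix factor, rose from 18.95 to 129 CPM. Pim2, an X-linked kinase gene, rose from 30.8 to 168 CPM in the KO line and from 67.9 to 518 CPM in tdTomato-positive cells. Car4, a carbonic anhydrase gene, rose from 15.3 to 83.7 CPM and from 11.2 to 161 CPM, respectively. Tmem54, Fam171b, Kcnk1 and Wipf3 also rose, with log2 ratios from 2.34 to 2.83. Tmem54, Kcnk1 and Wipf3 overlap genes on the opposite strand.

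Downward, Jam2 came first, followed by Mras, a RAS-family gene, which fell from 32.4 to 0.776 CPM, and Id1. Epha4, an ephrin receptor gene, fell from 24.1 to 1.53 CPM, and Khdc3, an oocyte and embryo factor gene, from 94.7 to 10.1 CPM. Khdc3 fell further in tdTomato-positive cells, from 55.9 to 1.29 CPM. Mylpf, a myosin light chain gene, fell from 339 to 42.5 CPM, and from 453 to 18.8 CPM in tdTomato-positive cells. Hmces, which encodes a DNA-protein crosslink factor, fell from 177 to 25.5 CPM. Gm46332 and Rbfaos, transcripts without a known role, had log2 ratios of -3.39 and -3.04. Khdc3 and S100a4 overlap protein-coding genes on the same strand (Gm20509 and Gm42674). Jam2 overlaps a ribosomal RNA gene and Epha4 a microRNA gene, also on the same strand. Hmces and Rbfaos overlap genes on the opposite strand. How reads in such overlaps were counted is not given in the sources used here. S100a4, S100a6 and Tm4sf1 fell less when cells of other types were left out. S100a4 went from 47.5 to 0.0843 CPM, with 5 UMIs left at 48 h, and its difference on the log2(CPM + 1) scale was -5.48, or -3.95 without cells of other types. Tm4sf1 went from 29.4 to 0.0337 CPM, with 2 UMIs left, a log2 ratio of -9.77 (-12.82 to -7.91), and S100a6 from 438 to 28.6 CPM. The difference of Tm4sf1 was -4.88, or -2.74 without cells of other types, and that of S100a6 -3.89, or -2.79. These genes are expressed in fibroblasts, and the part of feeder RNA in their fall was not tested.

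**Figure D5:**
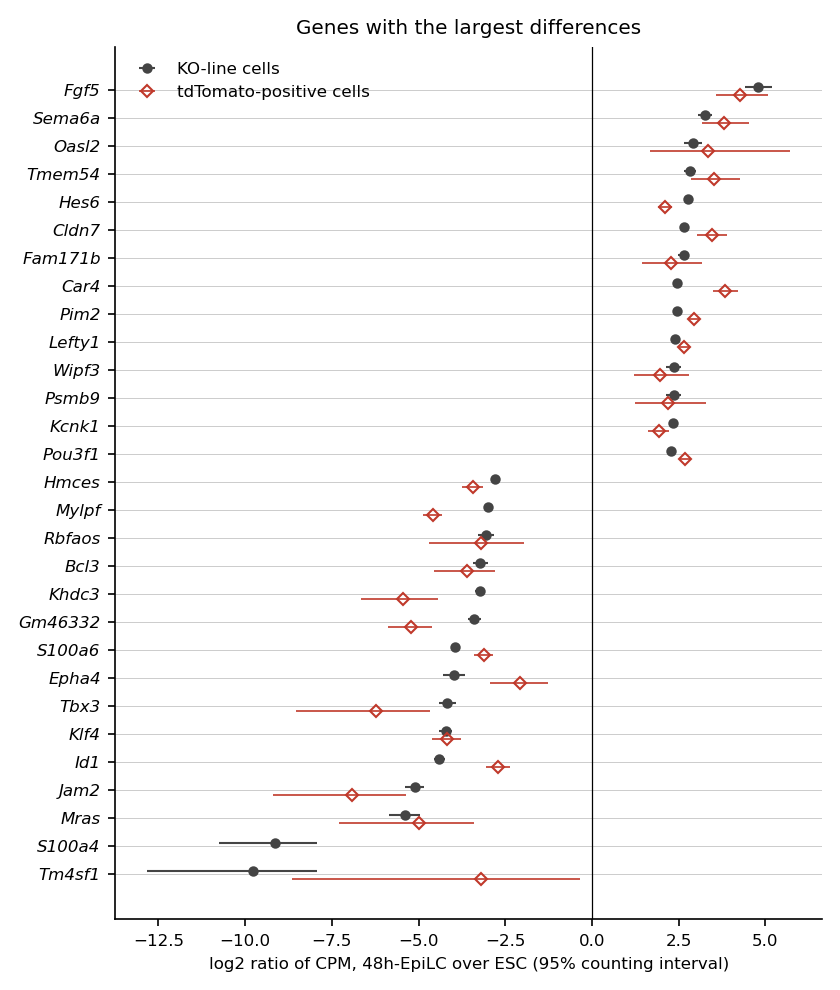
Log2 ratio of CPM, 48h-EpiLCs over ESCs, with exact 95% counting intervals, of the reported genes with the largest rises and falls in KO-line cells (grey circles), beside the tdTomato-positive cells (red diamonds). The ratios in KO-line cells run from 4.80 for Fgf5 to -9.77 for Tm4sf1, and S100a4 has no tdTomato-positive point because no UMI was counted there at 48 h.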

How the data were processed

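Single-cell RNA-seq libraries of ESCs (0 h) and 48h-EpiLCs were examined. The deposited values are raw UMI counts per gene and barcode, which the authors produced with Cell Ranger 3.0.2 and an mm10 reference extended by the tdTomato coding sequence. Per the labels, Seurat 4 was also used by the authors. No normalization had been applied. Of 32286 features, 32235 (99.8%) matched a GENCODE position on GRCm38, and 78 shared a symbol with another.

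The choice of cells and the gene lists were made with earlier results of these data known. UMIs of the chosen cells were summed per library and scaled to CPM. Genes with a mean of at least 5 CPM were counted, a pseudocount of 1 CPM was used for log2 differences, and a call meant at least 2-fold. No test was made, because each stage had 1 library and cells are not replicates. Intervals are exact Poisson (levels), exact binomial (ratios) and Clopper-Pearson (shares), all at 95% and for counting error only. Named genes were the 15 rises and 15 falls with the largest differences at 20 CPM or more in the higher stage, ranked by the smallest absolute difference over the rule as written, without cells of other types and without top doublet scores. Members of gene lists of up to 30 genes, and 4 members each way of longer lists, could also be named. Some genes chosen by these rules are not reported here. Per-cell sums were taken after thinning to 5000 UMIs, and cells of other types were those with 4 or more UMIs over a marker list.

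Scrublet marked 0 of 11054 and 1 of 9400 cells as doublets and was taken not to have worked, so the top 10% of its scores were removed as an alternative. Other alternatives changed the scaling, pseudocount, minimum level, Y-linked minimum (1 or 4), gene minimum (2000), thinning and the weight of each cell. Thinning the sums to the depth of the tdTomato-positive cells was chosen after seeing the data. The calculations were tested on simulated data. Python 3.11.15, numpy 2.4.6, scipy 1.17.1, pandas 2.3.3, scanpy 1.11.5, matplotlib 3.10.9 and, for TMM factors only, edgeR 4.0.16 were used. Promoter sequences are from RefSeq.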

Additional observations from a re-analysis of the deposited data

How the results depend on the processing

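The counts of changed genes followed the minimum level: with a mean of at least 20 CPM, 102 genes rose and 176 fell, and with no minimum, 397 rose and 679 fell, in keeping with the number of genes tested. Under the other 11 alternatives the rises ranged from 230 to 306 and the falls from 345 to 439. The naive transcription factors median stayed between -2.42 and -2.29 and the formative genes median between 0.81 and 1.46 under all 13 alternatives. None of the 34 named or marker genes changed sign, and none of those past 2-fold fell under it. For the named genes this was largely set by their choice and is no test of robustness. They were ranked by differences that stayed large without cells of other types and without top doublet scores, which are among the alternatives. A change of the minimum level cannot alter a gene's own value. Of 545 list medians recomputed, 19 changed sign, all in lists with medians near 0. A further 8 fell under 2-fold. With a mean of at least 20 CPM, these were the formative (0.81), LIF/STAT3 (-0.96), antigen presentation (0.91) and apolipoprotein (-0.92) lists. The apolipoprotein list did so under 3 other alternatives (-0.38 to -0.94), and the feeder markers without cells of other types (-0.14). The medians that changed sign belonged to the Nodal/activin list (up to 0.21), the FGF/ERK list (-0.10 at 20 CPM), and the Wnt, immediate early, Ccr4-Not partner, S phase, D cyclin, actin and germline lists. Rescaling by TMM moved the median of all genes by 0.04, and the share of changed genes that rose was 38.5% (36.2% to 43.9% over the alternatives). The knockout and WT identities of cells rest on transcripts, not on labels. Genes under a few CPM, such as Prdm14, Erap1 and most germ layer genes, are limited by depth. No paired analysis was possible because each stage had 1 library and the labels give no replicate numbers.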

Other observations

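Ribosomal protein genes took 20.2% of the UMIs of KO-line ESCs and 21.3% of those of KO-line 48h-EpiLCs. Of 82 measured, only Rpl10l, a retrogene copy of Rpl10 known from germ cells, fell, from 57.3 to 16.7 CPM. Over all genes, 4.04% fell and 2.53% rose. Reads that fit both such a copy and its parent gene may have been misassigned or left out. Of 16 measured germline genes, Stra8, the meiosis gene induced by retinoic acid, fell from 47.9 to 13.0 CPM in the KO line and from 9.59 to 2.09 CPM in tdTomato-positive cells, so its ESC level was higher in the KO line. Rhox5, an X-linked homeobox gene, was at 770 and 1057 CPM. The metallothionein gene Mt3 rose from 4.31 to 19.3 CPM, while Mt1 was at 1852 and 2102 CPM in the KO line and at 1934 and 1128 CPM in tdTomato-positive cells. The apolipoprotein gene Apoc2 fell from 70.9 to 28.5 CPM in the KO line and from 11.7 to 2.57 CPM in tdTomato-positive cells.

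The median difference by chromosome ran from -0.08 on chromosome 17 to 0.06 on chromosome 12. For the X chromosome, with 305 measured genes, it was below 0.01 in size. Of 14 genes listed as 2-cell-like markers, 12 were among the features, and all of these lay under the minimum mean level. Over Zscan4c, Zscan4d, Zscan4f, Tcstv1, Tcstv3 and Zfp352, 11 KO-line ESCs and 13 KO-line 48h-EpiLCs held 4 or more UMIs. Lin28b, which encodes an inhibitor of let-7 processing, rose from 7.16 to 16.1 CPM. This was the only rise among 11 measured Myc and Lin28 genes, beside 2.53% of all genes. Hmga2 fell from 19.9 to 5.78 CPM and differed by 0.04 on the log2(CPM + 1) scale without cells of other types.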
